A study of Mus musculus with 29 samples.

Results

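The Myc, Max and Mxd network is a family of basic helix-loop-helix leucine zipper transcription factors, followed here across mouse CD4 T cells that were resting, activated, or turned into regulatory T (Treg) cells with TGF-beta. Its members were chosen by name and not by a threshold on their values: Myc, Mycn, Max, Mxd1, Mxd3, Mxd4, Mxi1, Mnt, Mlx and Mga. All 10 were found once in the table of the cell-type experiment, among 54532 gene IDs, and once in the table of the Smad experiment, among 55421 IDs. All 10 passed the filter on low values in both tables. RNA was sequenced as tags from the 3' ends of transcripts of splenic CD4 T cells from C57BL/6 mice. The series deals with genes of lipid metabolism in Treg cells and with Smad2 and Smad3, which carry the TGF-beta signal to the nucleus.

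The cell-type experiment held 3 libraries of Treg cells, 3 of Th0 cells and 3 of naive cells. Treg cells had spent 5 days in IL-2 (15 ng/ml) plus human TGF-beta (10 ng/ml), Th0 cells 5 days in IL-2 (15 ng/ml) without TGF-beta, and naive cells were not cultured. The Smad experiment held Treg cultures under the same cytokines, with 2 libraries each for guide RNAs against Smad2 and Smad3 together (sgSmad2/3), Smad3 (sgSmad3) and Smad2 (sgSmad2), and 2 libraries of Treg cultures labelled with no guide (control). All cultures had received IL-2, and all libraries of the Smad experiment also TGF-beta, the control included. The Treg and Th0 cultures were grown from naive cells in the dish, so these Treg cells are induced and are not Treg cells taken from a mouse. Whether the libraries of a group stand for different mice or cultures is not labelled, so p-values reflect only how these libraries vary, which may be technical.

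In this network Max is the shared partner. Myc and its relative Mycn bind DNA as dimers with Max, mostly at the E-box CACGTG, and raise the transcription of genes for ribosome assembly, nucleotide and amino acid supply and the cell cycle. Mxd1, Mxi1 (also called Mxd2), Mxd3, Mxd4 and Mnt compete for Max and the same sites and bring the Sin3 corepressor with its histone deacetylases. Mlx is a Max-like partner for Mxd1, Mxd4 and Mnt and for the glucose-responsive Mondo factors Mlxip and Mlxipl, and Mga pairs with Max within a Polycomb-type repressor complex. In T cells Myc is induced by antigen receptor signals and is needed for the growth that precedes division. In epithelial cells TGF-beta represses Myc through Smad3 joined to E2F4 or E2F5 and the pocket protein p107.

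The network's own E-box lay in the promoters of 4 of the 9 members that have an entry in the RefSeq promoter table (build GRCm38.p6, 250 bases before to 50 after the start of transcription). A script searched both strands for the letters CACGTG, and 7.15% of all 32851 promoter entries hold them. The 4 promoters are shown because they carry the network's own site and belong to the repressors Mxd4 and Mnt, which differed between cultures and naive cells, and to the partners Max and Mlx. Capitals mark the E-box, whose first base lies 219 bases before the start in Mxd4, 123 in Mnt, 3 in Max and 40 in Mlx. Each sequence runs 5′ to 3′ on the gene's strand. The windows are chr5:34187661-34187960 on the minus strand for Mxd4, chr11:74830674-74830973 on the plus strand for Mnt, chr12:76962199-76962498 on the minus strand for Max and chr11:101087040-101087339 on the plus strand for Mlx.
Mxd4: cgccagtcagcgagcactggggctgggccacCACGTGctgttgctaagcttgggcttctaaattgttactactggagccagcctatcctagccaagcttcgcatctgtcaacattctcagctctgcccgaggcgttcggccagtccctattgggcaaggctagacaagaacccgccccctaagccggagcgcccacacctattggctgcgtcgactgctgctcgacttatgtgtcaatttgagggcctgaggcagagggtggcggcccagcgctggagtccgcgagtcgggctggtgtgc
Mnt: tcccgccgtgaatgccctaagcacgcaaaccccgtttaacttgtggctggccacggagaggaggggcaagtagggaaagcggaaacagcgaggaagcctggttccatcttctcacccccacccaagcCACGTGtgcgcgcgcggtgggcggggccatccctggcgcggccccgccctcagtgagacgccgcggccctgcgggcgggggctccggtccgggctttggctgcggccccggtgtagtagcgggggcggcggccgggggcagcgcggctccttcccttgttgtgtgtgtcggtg
Max: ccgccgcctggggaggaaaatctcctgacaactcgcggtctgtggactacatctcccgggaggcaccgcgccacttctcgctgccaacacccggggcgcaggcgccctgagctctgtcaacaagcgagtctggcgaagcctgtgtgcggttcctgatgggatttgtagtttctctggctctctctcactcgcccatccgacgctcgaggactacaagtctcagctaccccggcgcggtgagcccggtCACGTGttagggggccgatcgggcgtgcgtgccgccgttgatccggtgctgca
Mlx: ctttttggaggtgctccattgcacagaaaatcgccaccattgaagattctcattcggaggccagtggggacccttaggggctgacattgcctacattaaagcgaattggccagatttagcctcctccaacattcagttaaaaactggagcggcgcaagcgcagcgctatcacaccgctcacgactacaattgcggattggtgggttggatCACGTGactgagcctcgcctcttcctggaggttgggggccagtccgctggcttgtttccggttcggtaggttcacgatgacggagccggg
Myc was the member without an entry, so its promoter was not searched for any of these sequences. The palindrome GTCTAGAC, which Smad3 and Smad4 bind, was in no promoter window of the 9 members searched and in 0.213% of all entries. The E2F sequences TTTCCCGC or TTTGGCGC were in 1 member's window, that of Mycn, and in 1.57% of all entries. Such matches describe letters in these windows and no binding.

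Levels are in reads per 1000000 counted reads (CPM), as deposited. The cell-type libraries held 797612 to 1551478 reads and the Smad libraries 1294583 to 1602297, so 3 reads, the level that a count of 0 still allows, correspond to 1.93 to 3.76 CPM and 1.87 to 2.32 CPM. Foxp3, the defining Treg factor, averaged 179 ± 36.2 CPM in Treg, 10.4 ± 2.92 CPM in Th0 and 87.8 ± 4.56 CPM in naive libraries (SD, n = 3 each). Other Treg markers did not all follow Foxp3. Ikzf4 and Itgae were also highest with TGF-beta, with Treg means of 463 and 28.3 CPM. Their Th0 means were 210 and 0.408 CPM, and their naive means 86.4 and 4.46 CPM. Il2ra overlapped between the cultures (means 1332 CPM for Treg, 1313 CPM for Th0) and was lower without culture (naive mean 75.4 CPM). Ikzf2 was highest in naive libraries (mean 282 CPM), above Treg (102 CPM) and Th0 (63.5 CPM). Markers of other blood cells, summed by list, separated the naive libraries from both cultures. The summed red cell markers lay at 0 to 4.51 CPM in Treg, 4.90 to 5.55 CPM in Th0 and 362 to 777 CPM in naive libraries, and Alas2 was at 0 in both cultures. The 4 myeloid markers summed to at most 0.980 CPM in Treg, 1.06 CPM in Th0 and 8.18 to 52.0 CPM in naive libraries, with Lyz2, Csf1r and S100a8 at 0 in both cultures. The CD8 T and NK cell markers summed to 18.7 to 23.7 CPM in Treg, 8.57 to 11.7 CPM in Th0 and 28.1 to 41.4 CPM in naive libraries. Single markers did not all follow their sums. Ncr1 and Cd8b1 were highest in naive libraries. Klrd1 averaged 14.8 CPM in Treg, 1.89 CPM in Th0 and 11.9 CPM in naive libraries, and Cd8a 2.19, 1.09 and 1.25 CPM. Itgam, of the myeloid list, was at 0 in naive libraries and at most 0.980 CPM in Treg and 1.06 CPM in Th0. The part of these other cells in the members' differences was not tested. In such bulk libraries fewer cells of a type and less RNA per cell cannot be told apart.

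Across the cell-type experiment the antagonists did not move as 1 group. Myc and the antagonists Mxd3 and Mxi1 were several-fold higher in both cultures than in naive cells, while Mxd4, and less firmly Mnt, were lower. Between the cultures Myc gave no call, and Mxd4 and Mxd1 were the members that were higher with TGF-beta. The tests were limma on log2(CPM + 1), all 9 libraries in 1 fit, with p-values adjusted over all 14165 genes tested and a threshold of 0.05. In Treg against Th0, 2 of the 10 members were called, both higher, against 5.44% of all genes called in either direction, 2.99% higher and 2.45% lower. In Treg against naive, 5 members were called higher and 2 lower, where 39.9% of all genes were called, 23.3% higher and 16.5% lower. In Th0 against naive, 3 were called higher and 3 lower, where 41.9% of all genes were called, 24.3% higher and 17.6% lower. Groups did not overlap for 3 of 10 members in Treg against Th0 (21.2% of all genes), for 6 in Treg against naive (48.1%) and for 6 in Th0 against naive (48.4%). In Treg against Th0 these were Mxd4, Mxd1 and Mycn. Mycn had only 0, 1 and 1 reads in Treg and 1, 2 and 4 reads in Th0, so its read counts did overlap. Comparisons that have libraries in common (Treg in the first pair, naive in the last) are not independent of each other. The median log2 change of all genes was 0.08 in both comparisons against naive cells, and with quantile scaling it was -0.04 for Treg and -0.03 for Th0, a shift larger than the differences of Mlx in these comparisons.

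**Figure D1:**
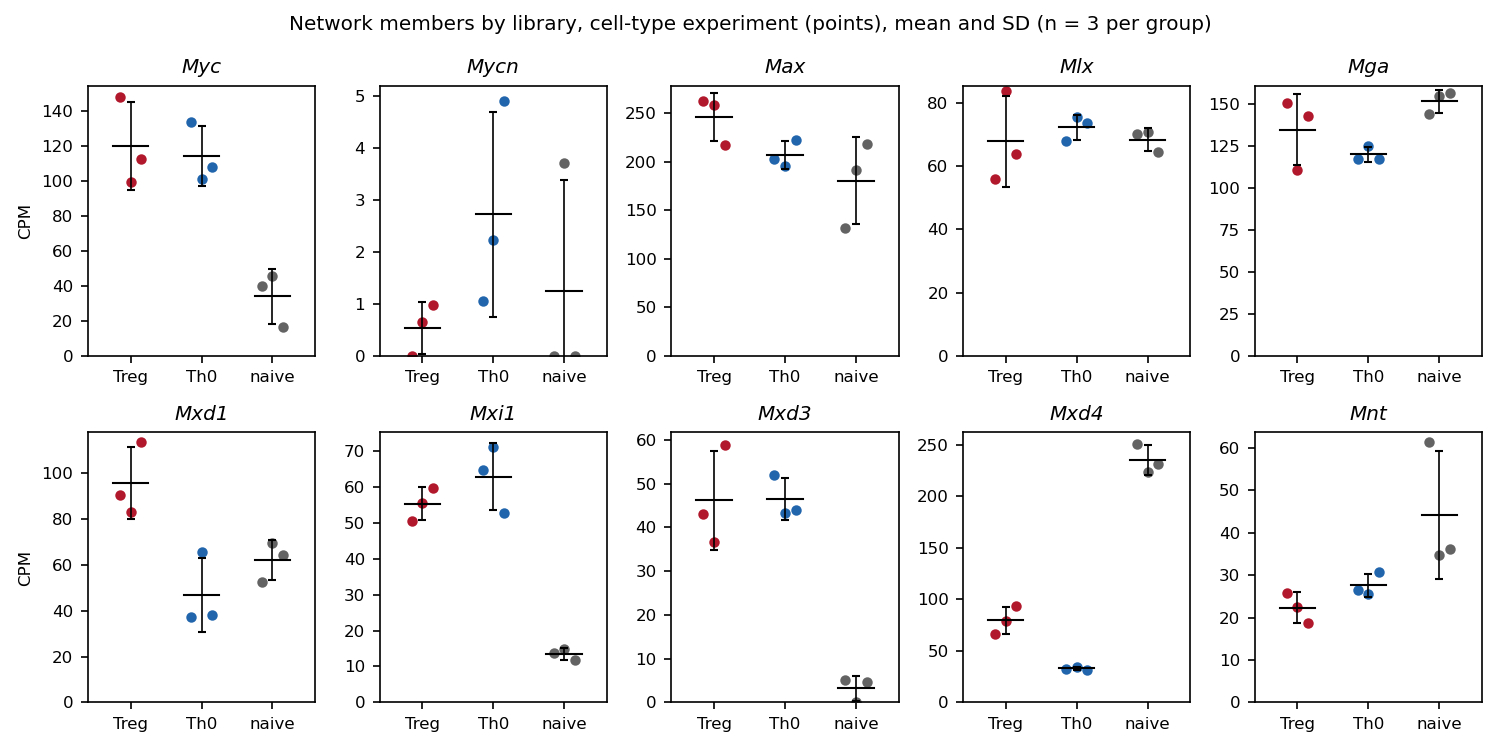
CPM (vertical axis, from 0) of the 10 members in each library of the cell-type experiment, with Treg, Th0 and naive libraries from left to right; points are libraries, bars the mean and SD, cut at 0 where the SD reaches below it (n = 3 per group). Mxd4 separates all groups, with Treg at 66.8 to 93.1 CPM, Th0 at 31.8 to 34.4 CPM and naive libraries at 223 to 251 CPM, whereas Myc, Mxd3 and Mxi1 separate naive libraries from both cultures.

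Myc, the activator of the network, stood at 148, 99.3 and 113 CPM in Treg, 133, 101 and 108 CPM in Th0 and 40.1, 45.8 and 16.4 CPM in naive libraries. The cultures overlapped each other, and every culture library exceeded every naive library. Myc rose over naive cells by 1.89 on the log2 scale in Treg (SE 0.26, 3.70-fold, limma adjusted p = 9.9e-06) and by 1.83 in Th0 (SE 0.26, 3.55-fold, limma adjusted p = 1.4e-05). Naive library 3 was the lowest of the naive libraries. The rise stayed called in all 18 alternatives of each comparison, with log2 values from 1.44 to 2.16 in Treg and from 1.38 to 2.10 in Th0. Between Treg and Th0 the log2 difference was 0.06 with a 95% interval from -0.49 to 0.61 (limma adjusted p = 0.96), and its sign turned when Treg library 1 (-0.098) or Th0 library 2 (-0.022) was left out.

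Mycn, the relative of Myc best known from neural and early embryonic tissue, was barely detected. Its 3' tags numbered 0, 1 and 1 reads in Treg, 1, 2 and 4 reads in Th0 and 0, 3 and 0 reads in naive libraries. All Treg and naive libraries and 2 of 3 Th0 libraries were at or under the level that a count of 0 allows, so no fold is given.

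Max, the common partner, was at 263, 258 and 217 CPM in Treg, 203, 195 and 223 CPM in Th0 and 132, 192 and 219 CPM in naive libraries. All pairs of groups overlapped, and naive library 1 was the lowest. Max was called higher in Treg than in naive cells (log2 0.47, SE 0.14, 1.39-fold, limma adjusted p = 0.014). The call was lost without naive library 1 (log2 0.26, adjusted p = 0.0945), without Treg library 1 (0.42, adjusted p = 0.0600), without Treg library 2 (0.43, adjusted p = 0.0580), with DESeq2 (adjusted p = 0.0631) and without the intensity trend (adjusted p = 0.119). Treg against Th0 (log2 0.24, interval -0.06 to 0.55) and Th0 against naive (0.23, interval -0.08 to 0.53) did not pass.

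Mxd4, a Max-binding repressor found in differentiating and resting cells, varied most clearly across the 3 states. It had 66.8, 78.6 and 93.1 CPM in Treg, 32.8, 34.4 and 31.8 CPM in Th0 and 251, 223 and 231 CPM in naive libraries. No group overlapped another, with Treg between Th0, the lowest, and naive, the highest. Mxd4 fell by 2.79 on the log2 scale in Th0 relative to naive cells (SE 0.14, limma adjusted p = 7.4e-12) and by 1.56 in Treg relative to naive cells (SE 0.14, limma adjusted p = 3.2e-08). Relative to Th0 cells it was 2.35-fold higher in Treg cells (log2 1.23, SE 0.14, limma adjusted p = 8.0e-06). These calls held in all 18 alternatives of each comparison, where the Treg against Th0 change ran from 1.11 to 1.35.

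Mxd1, the repressor first described as Mad and induced when many cell types differentiate, was the other member that rose with TGF-beta. It had 90.4, 83.1 and 114 CPM in Treg, 37.1, 65.5 and 38.0 CPM in Th0 and 52.7, 69.4 and 64.3 CPM in naive libraries. Every Treg library exceeded every Th0 and every naive library, whereas Th0 library 2 lay within the naive range. Relative to Th0 cells, Mxd1 was 2.08-fold higher in Treg cells (log2 1.05, SE 0.20, limma adjusted p = 0.0024), a call lost in 1 of 18 alternatives, the fit without an intensity trend (adjusted p = 0.0726). Over naive cells it was higher in Treg by 0.61 on the log2 scale (SE 0.20, limma adjusted p = 0.020). That call was lost without naive library 1 (0.50, adjusted p = 0.0614), without Treg library 3 (0.48, adjusted p = 0.107), with quantile scaling (0.44, adjusted p = 0.134), with DESeq2 (adjusted p = 0.0753) and without the trend (adjusted p = 0.0970). In Th0 against naive Mxd1 did not pass (log2 -0.44, SE 0.20, limma adjusted p = 0.089). It passed as lower in 5 of 18 alternatives, which were edgeR (-0.50, adjusted p = 0.0348), TMM (-0.54, adjusted p = 0.0394) and quantile scaling (-0.64, adjusted p = 0.0322), and without naive library 1 (-0.55, adjusted p = 0.0364) or Th0 library 2 (-0.70, adjusted p = 0.0057).

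Mxd3, a repressor that is expressed in proliferating cells around S phase, was nearly silent in naive cells. It had 43.1, 36.7 and 58.8 CPM in Treg, 51.9, 43.3 and 44.1 CPM in Th0 and 5.01, 0 and 4.68 CPM in naive libraries, where it had only 4, 0 and 4 reads. The cultures overlapped each other and lay far above the naive range. It rose over naive cells by 3.84 on the log2 scale in Treg (SE 0.48, limma adjusted p = 2.6e-06) and by 3.87 in Th0 (SE 0.48, limma adjusted p = 2.1e-06). With so few naive reads the size depended on the constant added before the logarithm, and over the alternatives it ran from 2.68 to 5.08 in Treg and from 2.71 to 5.11 in Th0, always called. Without naive library 2, which had no read, it was 2.99 in Treg and 3.02 in Th0. Its locus overlaps Prelid1 (RefSeq), and no source used here gives the strand setting of the counting.

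Mxi1, a repressor of the same subfamily, had 50.6, 55.4 and 59.8 CPM in Treg, 64.6, 71.0 and 52.7 CPM in Th0 and 13.8, 14.9 and 11.7 CPM in naive libraries. Treg and Th0 overlapped, and both stood apart from naive. Mxi1 rose over naive cells by 1.96 on the log2 scale in Treg (SE 0.20, 3.90-fold, limma adjusted p = 1.3e-07) and by 2.14 in Th0 (SE 0.20, 4.40-fold, limma adjusted p = 3.5e-08), in all 18 alternatives of each. Between the cultures its log2 difference was -0.17 (interval -0.58 to 0.24). Its direction against naive cells was that of Myc and Mxd3 and opposite to that of Mxd4. RefSeq places another gene, Gm30541, over part of the Mxi1 locus.

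Mnt, the most widely expressed of the repressors, had 25.8, 22.6 and 18.6 CPM in Treg, 26.5, 25.5 and 30.6 CPM in Th0 and 61.4, 34.7 and 36.2 CPM in naive libraries. Both cultures lay below all naive libraries, of which library 1 was far above the others. Mnt fell by 0.91 on the log2 scale in Treg relative to naive cells (SE 0.24, limma adjusted p = 0.0051), a call lost only without naive library 1 (-0.66, adjusted p = 0.0503). In Th0 it fell by 0.62 relative to naive cells (SE 0.24, limma adjusted p = 0.0483), which was lost in 8 of 18 alternatives. Among these were the fits without naive library 1 (-0.36, adjusted p = 0.303), Th0 library 1 (-0.59, adjusted p = 0.105), Th0 library 2 (-0.57, adjusted p = 0.117) and Th0 library 3 (-0.69, adjusted p = 0.0559). Between the cultures the log2 difference was -0.30 (interval -0.81 to 0.21).

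Mga, the T-box containing Max partner, had 151, 111 and 143 CPM in Treg, 118, 125 and 118 CPM in Th0 and 144, 155 and 157 CPM in naive libraries. Treg overlapped both other groups, and Th0 lay below naive. Mga fell by 0.33 on the log2 scale in Th0 relative to naive cells (SE 0.12, limma adjusted p = 0.037). Leaving out naive library 2 (-0.32, adjusted p = 0.0825), naive library 3 (-0.31, adjusted p = 0.0865), Th0 library 1 (-0.32, adjusted p = 0.0881), Th0 library 2 (-0.37, adjusted p = 0.0512) or Th0 library 3 (-0.32, adjusted p = 0.0850) ended that call, as did the fit without a trend (adjusted p = 0.138). Mlx, the partner of the Mondo factors, had 56.0, 83.8 and 63.7 CPM in Treg, 67.8, 75.5 and 73.5 CPM in Th0 and 70.2, 70.6 and 64.3 CPM in naive libraries, with all groups overlapping. Its log2 differences were -0.11 in Treg against Th0 (interval -0.44 to 0.22), -0.03 in Treg against naive (-0.36 to 0.30) and 0.08 in Th0 against naive (-0.25 to 0.41). Its sign turned in each: without Treg library 1 in Treg against Th0 (0.017) and against naive (0.095), without Treg library 3 in Treg against naive (0.0042), and in Th0 against naive with quantile (-0.12) or TMM scaling (-0.024), edgeR (-0.022) and DESeq2 (-0.023). RefSeq overlaps, Gm13998 at Mga, Psmc3ip at Mlx and Gm38850 at Mxd1, carry the same limit as Prelid1 at Mxd3.

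**Figure D2:**
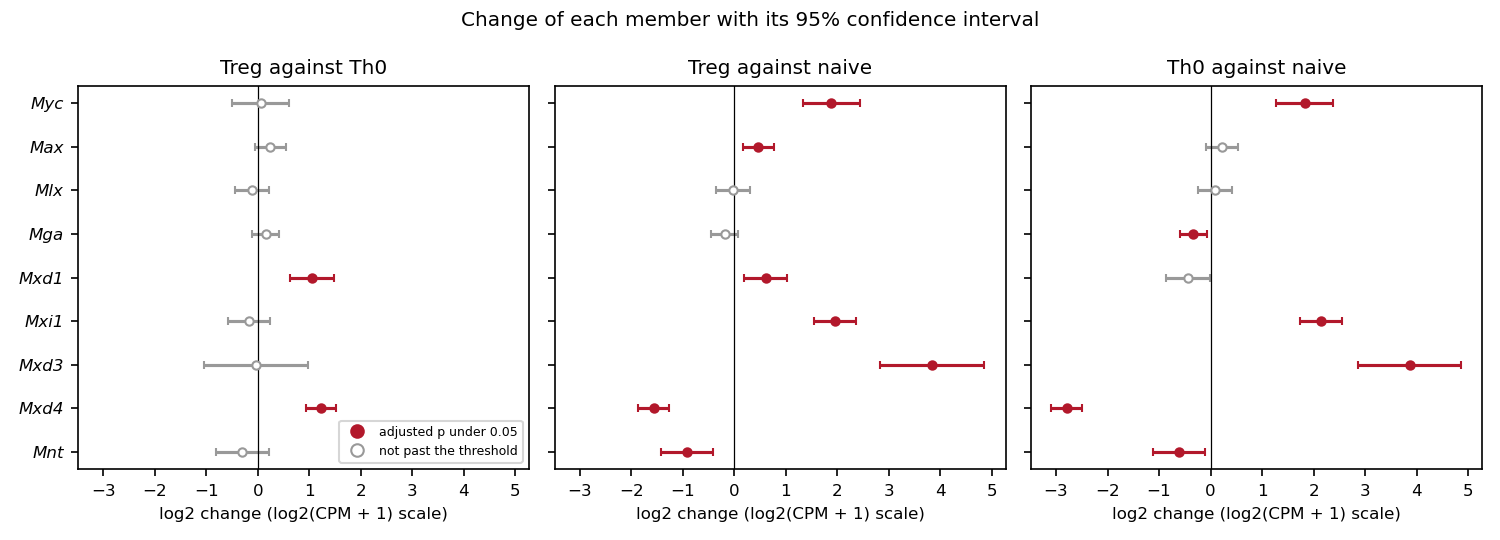
Log2 change of 9 members (rows) with its 95% confidence interval on the log2(CPM + 1) scale, in Treg against Th0, Treg against naive and Th0 against naive from left to right; filled points passed an adjusted p of 0.05, and Mycn is left out for its few reads. Filled points of Mxd4 lie above 0 in Treg against Th0 (1.23) and below 0 against naive cells (-1.56 and -2.79).

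The balance was summarised as the log2 ratio of Myc to the sum of Mxd1, Mxd3, Mxd4, Mxi1 and Mnt in each library, which is read between groups alone because tags of different genes may be captured unequally. It was -0.90, -1.47 and -1.60 in Treg, -0.67, -1.24 and -0.87 in Th0 and -3.23, -2.87 and -4.33 in naive libraries. Every culture library exceeded every naive library, and Treg and Th0 overlapped. The means were -1.32 ± 0.37 in Treg, -0.92 ± 0.29 in Th0 and -3.48 ± 0.76 in naive libraries (SD, n = 3 each), which puts Treg 2.15 and Th0 2.55 above naive and Treg 0.40 below Th0. The ratio combines several members and is given as a description, with no p. The summed antagonists averaged 299 ± 38.8 CPM in Treg, 217 ± 21.5 CPM in Th0 and 358 ± 22.5 CPM in naive libraries. Treg libraries, at 277, 277 and 344 CPM, lay above all Th0 libraries (213, 240 and 197 CPM), and Treg library 3 alone reached the naive range of 342 to 384 CPM. Mxd4 gave 79.5 ± 13.2 CPM of this sum in Treg, 33.0 ± 1.29 CPM in Th0 and 235 ± 14.2 CPM in naive libraries, whereas Mxi1 gave 55.3 ± 4.57 CPM in Treg, 62.8 ± 9.31 CPM in Th0 and 13.4 ± 1.62 CPM in naive libraries.

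**Figure D3:**
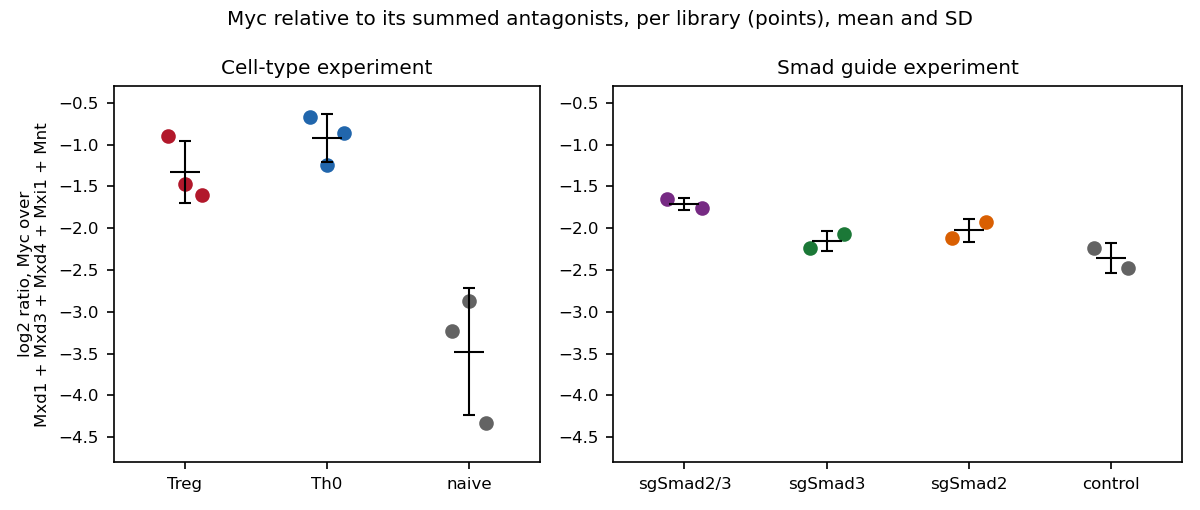
Log2 ratio of Myc to the summed CPM of Mxd1, Mxd3, Mxd4, Mxi1 and Mnt (vertical axis) in each library, with Treg, Th0 and naive on the left and sgSmad2/3, sgSmad3, sgSmad2 and control on the right; points are libraries, bars the mean and SD (n = 3 or 2). Naive libraries lie between -4.33 and -2.87, below all Treg and Th0 libraries; the 2 experiments were scaled separately, so their levels are not compared.

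Genes known as direct Myc targets were followed from a list of 28, all tested. This list, like the others, was chosen with earlier results of these data known. Against naive cells 20 of them rose and 0 fell in Treg, with a median log2 change of 0.96 beside 0.08 over all genes, and 24 rose and 1 fell in Th0, with a median of 1.15 beside 0.08. Of all genes, 23.3% were called higher and 16.5% lower in Treg, and 24.3% higher and 17.6% lower in Th0. Tfrc, the transferrin receptor that brings in iron, rose by 3.41 in Treg and 3.70 in Th0 (limma adjusted p = 1.5e-12 and 4.1e-13). Ldha, the lactate dehydrogenase of aerobic glycolysis, rose by 2.56 in Treg and 2.76 in Th0, and Slc7a5, a transporter of large neutral amino acids, by 2.04 in Treg and 2.88 in Th0. The gene that fell in Th0 was Ccnd2, which encodes cyclin D2 (log2 -0.32, SE 0.08, limma adjusted p = 0.0033). That call was lost in the limma fit without the intensity trend (adjusted p = 0.118).

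In Treg against Th0, where Myc itself did not pass, 0 targets were higher and 4 lower, with a median log2 change of -0.23 beside -0.01 over all genes. Of all genes, 2.99% were called higher and 2.45% lower. Slc7a5 had 68.9, 67.7 and 56.8 CPM in Treg and 98.5, 110 and 143 CPM in Th0 libraries, with no overlap, and fell by 0.84 on the log2 scale (SE 0.19, limma adjusted p = 0.010). Shmt2, the mitochondrial enzyme that feeds one-carbon units from serine, had 104, 83.1 and 88.2 CPM in Treg and 132, 142 and 147 CPM in Th0 libraries and fell by 0.61 (SE 0.14, limma adjusted p = 0.0094). Npm1, which encodes the nucleolar chaperone nucleophosmin, fell by 0.41 (SE 0.10, limma adjusted p = 0.011). Ncl, which encodes nucleolin and was named after its values were seen, fell by 0.30 (SE 0.08, limma adjusted p = 0.011). Of these 4 calls, 0 were left without the intensity trend, and 2 each without Treg library 2 (Shmt2 at -0.54 and Ncl at -0.28 were lost) or Treg library 3 (Slc7a5 and Npm1 were lost). Without Th0 library 1 Npm1 (-0.36) was lost, without Th0 library 2 Ncl and without Th0 library 3 Slc7a5 (-0.69), with adjusted p-values of at most 0.0879. DESeq2 and edgeR on the recovered reads called 4 targets each. Over the list, 5 of the 28 changes were above 0, beside 48.3% of all genes.

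**Figure D4:**
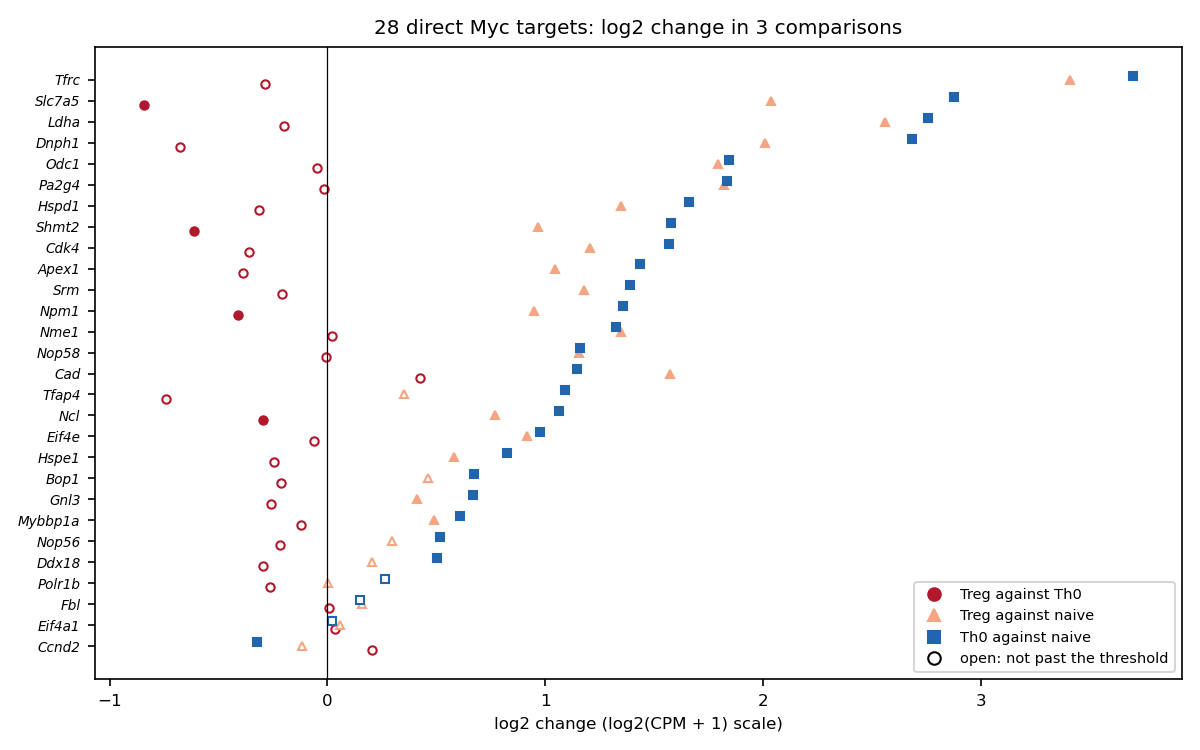
Log2 change (horizontal axis, log2(CPM + 1) scale) of the 28 direct Myc targets (rows, ordered by Th0 against naive) in Treg against Th0, Treg against naive and Th0 against naive; filled symbols passed an adjusted p of 0.05. Most targets lie right of 0 in both comparisons against naive cells, up to 3.70 for Tfrc, and left of 0 in Treg against Th0, down to -0.84 for Slc7a5.

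Other lists of the network were counted in the same way. Of 24 cofactors and genes of Myc turnover, 9 rose and 8 fell in Treg against naive, and 11 rose and 8 fell in Th0 against naive. Of all genes, 23.3% were called higher and 16.5% lower in Treg against naive, and 24.3% higher and 17.6% lower in Th0 against naive. Aurka, the mitotic kinase that stabilises Mycn protein, rose by 4.14 in Treg and 4.21 in Th0, Cip2a, an inhibitor of the phosphatase PP2A that protects Myc, by 4.26 in Treg and 4.05 in Th0, and Skp2, a ubiquitin ligase subunit for Myc, by 2.22 in Treg and 1.87 in Th0 (limma adjusted p at most 7.5e-05). With a pseudocount of 5 the change of Aurka was 3.33 in Treg and 3.39 in Th0, and that of Cip2a also moved by over 1.5-fold, to 3.41 in Th0. Bptf, of the NURF remodeller, fell by 0.80 in Treg and by 0.83 in Th0, and the deubiquitinase gene Usp28 fell by 0.79 in Treg and by 1.29 in Th0. Usp36, another deubiquitinase gene, fell by 0.63 in Treg, and Ncor1, a corepressor, by 0.71 in Th0. Both were also called lower in the other culture. Over fits that left out 1 library, Usp36 ran from -0.60 to -0.51 in Th0 and Ncor1 from -0.64 to -0.59 in Treg. The Treg call of Usp28 was lost in 4 of 6 fits that left out 1 library (naive library 1 or 3, Treg library 2 or 3), with log2 values from -0.98 to -0.58. It also ended without the intensity trend (limma adjusted p = 0.0597) and with a pseudocount of 0.1 (limma adjusted p = 0.0522). In Treg against Th0, limma, edgeR and DESeq2 each called 0 of the 24. Without the intensity trend 11 of the 24 were called in Treg against naive.

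Among 4 Mondo factors and targets, 3 were tested, since Mlxipl had at most 1.25 CPM in any cell-type library. Txnip, a Mondo and Mlx target that limits glucose uptake, fell by 1.78 in Treg and by 1.63 in Th0 relative to naive cells (limma adjusted p = 1.8e-12 and 6.2e-12). Mlxip, the Mlx partner, fell by 0.67 in Treg and by 0.64 in Th0 (limma adjusted p = 0.037 and 0.042), and in Treg against Th0 limma, edgeR and DESeq2 each called 0 of the 3. The Mlxip calls were lost without naive library 3, without Treg library 2 or 3 and without any of the Th0 libraries, with log2 values from -0.98 to -0.49 in Treg and from -0.74 to -0.50 in Th0. Both Mlxip calls also ended without the intensity trend (limma adjusted p = 0.102 in Treg and 0.109 in Th0) and with a pseudocount of 0.1 (0.0570 and 0.0637). The fit on only the groups compared ended the Treg call of Mlxip (limma adjusted p = 0.0515). Of 6 genes known to be repressed by Myc with Miz1, 5 were tested, and 3 rose and 2 fell against naive cells in each culture. The share of all genes called, in either direction, was 39.9% in Treg and 41.9% in Th0. Cdkn1a, which encodes the cell cycle inhibitor p21, rose by 4.56 in Treg and 3.96 in Th0, Ndrg1 by 4.66 in Treg and 4.36 in Th0 and Ndrg2 by 2.49 in Treg and 2.62 in Th0. Ndrg2 had 2.51 CPM in naive library 1, under the level of 3 reads there (3.76 CPM) and below the 13.6 CPM of naive library 2. The size of its rise depended on that library, and without it was 1.80 in Treg and 1.93 in Th0. The stress-induced Gadd45a was called lower in both cultures, with 2.15, 2.58 and 0 CPM in Treg, 4.24, 3.33 and 3.67 CPM in Th0 and 12.5, 13.6 and 21.0 CPM in naive libraries. Treg libraries 1 and 3 were under the level of 3 reads and Th0 libraries 2 and 3 at it, so no size is given, and with a pseudocount of 0.1 the Th0 call was lost (adjusted p = 0.156). Cdkn1b, which encodes the inhibitor p27, fell by 0.48 in Treg and by 0.56 in Th0. In Treg against Th0 limma and DESeq2 called 0 of these 5 and edgeR 2, both higher (Cdkn1a at 0.62 and Ndrg1 at 0.33).

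The TGF-beta repressor complex list held 8 genes, all tested. Of all genes, limma called 5.44% in Treg against Th0, 39.9% in Treg against naive and 41.9% in Th0 against naive. In Treg against Th0 limma called Smad3, with 26.9, 28.4 and 24.5 CPM in Treg and 41.3, 53.3 and 38.0 CPM in Th0 libraries (log2 -0.70, SE 0.19, limma adjusted p = 0.039). That call was lost in 5 of 6 fits that left out 1 library (any Treg library, Th0 library 1 or Th0 library 2), with log2 values from -0.80 to -0.56, with quantile scaling (adjusted p = 0.0504) and without the intensity trend (adjusted p = 0.108). DESeq2 called 0 of the 8, and edgeR 2, Smad3 (-0.71, adjusted p = 0.0274) and Cebpb (-1.52, adjusted p = 0.0059), the Cebpb call being named after its values were seen. Against naive cells Tfdp1, the E2F partner, rose by 2.86 in Treg and 3.13 in Th0, Rbl1, which encodes p107, by 1.26 in Treg and 1.36 in Th0, and E2f4 by 0.54 in Treg and 0.61 in Th0. Smad4 fell by 0.81 in Treg and by 0.84 in Th0. Smad3 (by 1.09) and Cebpb (by 1.21) fell in Treg. E2f5 was called lower in Th0, where it had 1.06, 6.66 and 2.45 CPM, than in naive libraries, where it had 17.6, 13.6 and 12.9 CPM; Th0 libraries 1 and 3 were under the level of 3 reads, so no size is given. Both E2f4 calls were lost with edgeR, DESeq2, TMM and quantile scaling (log2 0.33 to 0.47 in Treg, 0.41 to 0.51 in Th0). E2f4 also lost its Treg call without naive library 1 or 2 or any Treg library (0.45 to 0.71) and its Th0 call without naive library 1 or 2 or Th0 library 3 (0.51 to 0.78). Cebpb lost its call in Treg against naive without naive library 3 or Treg library 2 or 3 (-1.68 to -0.76). That call also ended without the intensity trend (limma adjusted p = 0.0968), with a pseudocount of 0.1 (0.0626) and with only the groups compared (0.0627).

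Genes whose pattern was closest to each strongly changed member were found by the root mean square of the difference between centred log2 values over the 9 libraries, among 8467 genes with a mean of at least 10 CPM. Nearest to Myc were Lsm5 (0.17), Trappc6a (0.21), Prickle1 (0.23), Nckap1 (0.24) and Fkbp2 (0.25). Nearest to Mxd4 were Zbtb20 (0.23), Dusp2 (0.26), Kif1b (0.26), Il6ra (0.28) and Ier2 (0.28), and Zbtb20 averaged 172 CPM in Treg, 77.4 CPM in Th0 and 433 CPM in naive libraries. Nearest to Mxi1 were Cbx5 (0.11), Nelfe (0.11), Wdr76 (0.13), Rcn1 (0.14) and Ckap5 (0.15). Nearest to Mxd3 were Gm22748 (0.31), Ccne2 (0.35), Rad54l (0.44), Gins2 (0.47) and Melk (0.48), the loosest match of the 4, and Ccne2, Rad54l, Gins2 and Melk are known genes of DNA replication, repair and division. The distances follow largely the difference between cultures and naive cells, which these genes share with many others.

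The Smad experiment asked what the loss of Smad2, Smad3 or both does in Treg cultures. Its values are CPM rounded to whole numbers. Smad2 was at 13 and 18 in sgSmad2/3, 25 and 30 in sgSmad3, 12 and 24 in sgSmad2 and 37 and 29 in control libraries. Smad3 was at 41 and 37 in sgSmad2/3, 26 and 25 in sgSmad3, 44 and 56 in sgSmad2 and 30 and 34 in control libraries. Smad2 lay below both controls in all 4 libraries with its guide, and Smad3 lay below both controls in the sgSmad3 libraries and above them in the sgSmad2/3 libraries. No source used here gives the cut positions, and 3' tags outside an edited site do not check an edit. Control library 1 and sgSmad2 library 1 listed 16547 and 16641 genes above 0, where the other 6 libraries listed 14298 to 15499, so the results that rest on them were also fitted without both.

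No member was called against the control or in the departure of the double guides (sgSmad2/3) from both single guides added up, by limma or under any alternative. The background was equally empty: 0% of the 18347 genes tested were called in each of the 4 comparisons, with 1795 genes at an unadjusted p under 0.05 for sgSmad2/3, 1842 for sgSmad3, 1006 for sgSmad2 and 1051 for the departure. Alternatives gave 0 to 519 genes for the single comparisons with the control, none of them members. The 3 comparisons share the control libraries. With 2 libraries a group these intervals are wide, and a p that misses the threshold does not show that a member was unaffected. Red cell markers summed to 64 to 117 in sgSmad2/3, 31 to 67 in sgSmad3, 24 to 25 in sgSmad2 and 13 to 17 in control libraries, with Alas2 at 0. Myeloid markers summed to 6 to 35 in sgSmad2/3, 3 to 23 in sgSmad3, 0 to 3 in sgSmad2 and 0 to 1 in control libraries, with Itgam at 0 in all. The higher myeloid sums rested largely on S100a8, at 2 and 27 in sgSmad2/3 and 19 and 1 in sgSmad3 libraries. CD8 T and NK cell markers summed to 6 to 9 in sgSmad2/3, 9 to 12 in sgSmad3, 7 to 11 in sgSmad2 and 12 to 14 in control libraries. The part of these cell types in the members' differences was not tested.

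**Figure D5:**
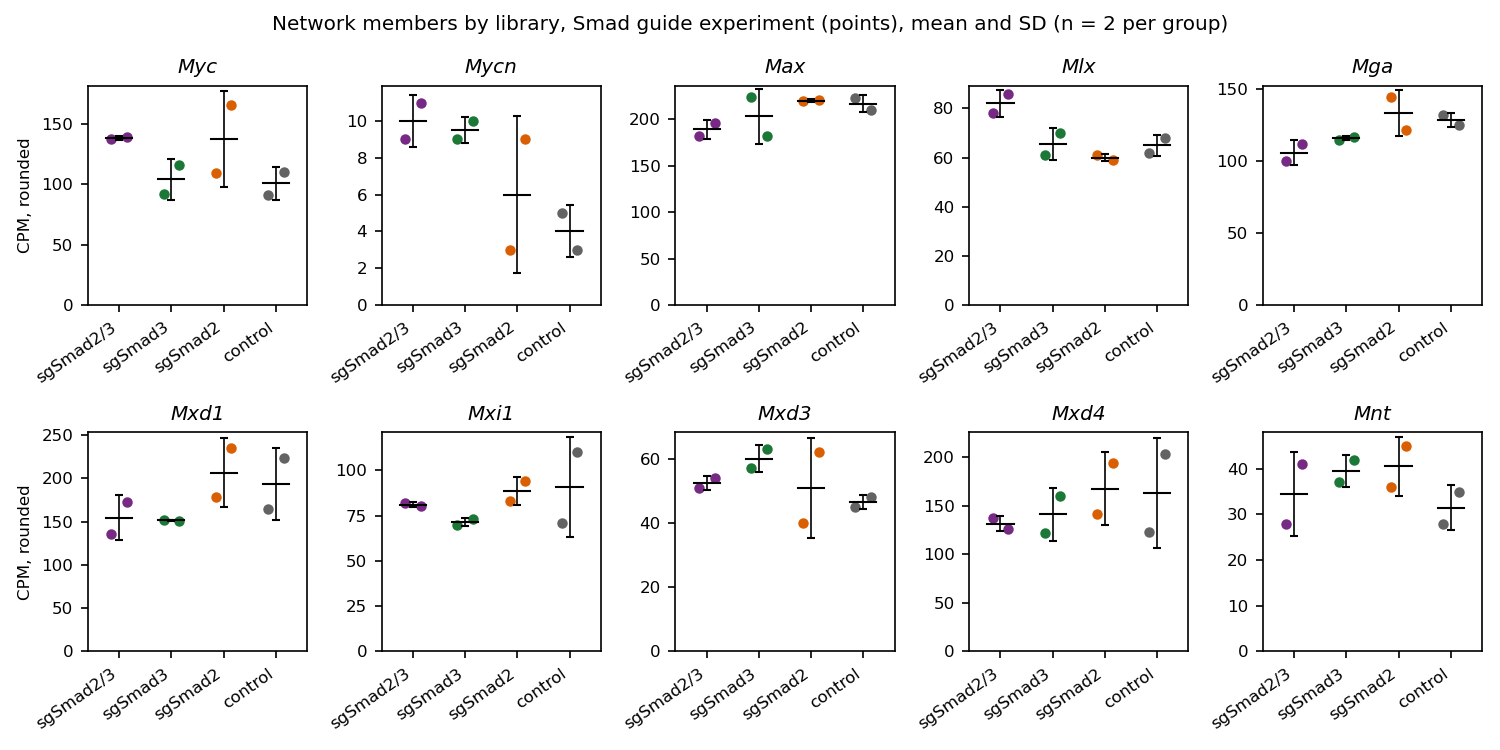
CPM rounded to whole numbers (vertical axis, from 0) of the 10 members in each library of the Smad experiment, with sgSmad2/3, sgSmad3, sgSmad2 and control from left to right; points are libraries, bars the mean and SD (n = 2 per group). Mlx is highest in both sgSmad2/3 libraries (78 and 86), and the control pair differs widely for Mxd4 (123 and 203) and Mxi1 (71 and 110).

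Myc stood at 137 and 139 in sgSmad2/3, 92 and 116 in sgSmad3, 109 and 165 in sgSmad2 and 91 and 110 in control libraries. Both sgSmad2/3 libraries lay above both controls, and the single guides overlapped them. The log2 difference from control was 0.46 in sgSmad2/3 (interval -0.11 to 1.03, limma unadjusted p = 0.095, adjusted p = 0.63), 0.05 in sgSmad3 (-0.52 to 0.62) and 0.42 in sgSmad2 (-0.15 to 0.99). In sgSmad3 its sign turned without control library 1 (-0.090), without sgSmad3 library 2 (-0.12) and without control library 1 and sgSmad2 library 1 both (-0.090). Mycn, at 9 and 11 in sgSmad2/3, 9 and 10 in sgSmad3, 3 and 9 in sgSmad2 and 5 and 3 in control libraries, was above the control in every library with the Smad3 guide. Its log2 difference was 1.16 in sgSmad2/3 (interval -0.04 to 2.36, limma unadjusted p = 0.056) and 1.10 in sgSmad3 (-0.10 to 2.30, limma unadjusted p = 0.067), with adjusted p-values of 0.54 and 0.55, on few reads.

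Max, Mlx and Mga gave no call either. Max had 182 and 196 in sgSmad2/3, 224 and 182 in sgSmad3, 219 and 221 in sgSmad2 and 223 and 210 in control libraries, with a log2 difference of -0.20 in sgSmad2/3 (interval -0.49 to 0.10). Mlx had 78 and 86 in sgSmad2/3, 61 and 70 in sgSmad3, 61 and 59 in sgSmad2 and 62 and 68 in control libraries. Only the sgSmad2/3 libraries of Mlx stood above the control pair, by 0.33 on the log2 scale (interval 0.05 to 0.62, limma unadjusted p = 0.030, adjusted p = 0.44). Its departure from the added single guides was 0.43 (interval 0.03 to 0.84, limma unadjusted p = 0.039, adjusted p = 0.80). Mlx was the 1 member of 10 with an unadjusted p under 0.05 in sgSmad2/3, where 9.78% of all genes had one, and in the departure, where 5.73% had one, while 0 of 10 had one in sgSmad3 (10% of all genes) and 0 of 10 in sgSmad2 (5.48%). Mga had 100 and 112 in sgSmad2/3, 115 and 117 in sgSmad3, 145 and 122 in sgSmad2 and 132 and 125 in control libraries, with a log2 difference of -0.28 in sgSmad2/3 (interval -0.56 to 0.01, limma adjusted p = 0.54).

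Among the antagonists, the members that had risen with TGF-beta were not called in any guide group. Mxd1 had 136 and 173 in sgSmad2/3, 152 and 151 in sgSmad3, 178 and 235 in sgSmad2 and 164 and 223 in control libraries. Its log2 difference was -0.32 in sgSmad2/3 (interval -0.85 to 0.22) and -0.33 in sgSmad3 (-0.87 to 0.20), while in sgSmad2 it was 0.10 (-0.44 to 0.63) and turned without control library 1 (-0.12) or sgSmad2 library 2 (-0.10). Mxd4 had 137 and 126 in sgSmad2/3, 122 and 160 in sgSmad3, 141 and 194 in sgSmad2 and 123 and 203 in control libraries. Its log2 differences of -0.26 in sgSmad2/3 (interval -0.98 to 0.45) and -0.18 in sgSmad3 (-0.90 to 0.54) turned to 0.094 in sgSmad2/3 and 0.18 in sgSmad3 without control library 2, and to 0.018 in sgSmad3 without sgSmad3 library 1. Mxd3 had 51 and 54 in sgSmad2/3, 57 and 63 in sgSmad3, 40 and 62 in sgSmad2 and 45 and 48 in control libraries. Mxi1 had 82 and 80 in sgSmad2/3, 70 and 73 in sgSmad3, 83 and 94 in sgSmad2 and 71 and 110 in control libraries. Mnt had 28 and 41 in sgSmad2/3, 37 and 42 in sgSmad3, 36 and 45 in sgSmad2 and 28 and 35 in control libraries.

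Libraries of a guide group lay wholly above or below the control pair for 6 of 10 members in sgSmad2/3 (29.8% of all genes), for 5 in sgSmad3 (28.2%) and for 2 in sgSmad2 (19%). In sgSmad2/3 these were Myc, Mycn, Mlx and Mxd3 above and Max and Mga below. The log2 ratio of Myc to the summed antagonists was -1.66 and -1.76 in sgSmad2/3, -2.24 and -2.07 in sgSmad3, -2.12 and -1.93 in sgSmad2 and -2.23 and -2.48 in control libraries. The sgSmad2/3 libraries lay above all others, by 0.65 on average over the control, and the sgSmad3 range met the control range. The 28 direct Myc targets had median log2 differences of 0.15 in sgSmad2/3, 0.17 in sgSmad3 and 0.11 in sgSmad2, beside 0 over all genes. limma called 0 of the 28 in each, with 4, 9 and 3 at an unadjusted p under 0.05 in sgSmad2/3, sgSmad3 and sgSmad2. Of all genes, 9.78%, 10% and 5.48% had such a p in these comparisons, in the same order. The other lists had medians between -0.17 and 0.08 in these comparisons, with 0 called, and 0 to 3 genes a list at an unadjusted p under 0.05. The 3 were among the 8 genes of the TGF-beta repressor complex list in sgSmad2/3.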

How the data were processed

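RNA of 17 libraries was used, and the other RNA and ATAC libraries of the series were not analysed here. Per the submitters' processing notes, STAR 2.7.9a, Subread 2.0.1 and mm10 were used, while no source used here gives the strand setting or the annotation. The authors named both deposited tables TPM. The cell-type table holds deposited CPM values: columns sum to 1000000, and 100% of the values above 0 are whole multiples of 1 read, whatever the gene's length (tolerance 0.01). In the Smad table the deposited values are a score, CPM that the authors rounded to whole numbers. The plan took both for TPM, and the CPM test was used in its place. An unnamed last line of the Smad table, at most 7.72e-05% of a column, was left out.

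Genes at 1 or more in at least 3 (cell-type) or 2 (Smad) libraries were fitted as log2(value + 1) with limma 3.58.1 in R 4.3.3, using an intensity trend, 1 model per table for all its groups, and Benjamini-Hochberg adjustment over all genes tested. This scale understates changes of genes with few reads. Intervals are at 95% and floors are 3 reads. The fits were tested on simulated data. Alternatives included edgeR 4.0.16 and DESeq2 1.42.0 on the recovered reads of the cell-type table.

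Members and lists were chosen with earlier results of these data known. Named were all members, up to 3 called genes per list, comparison and direction with the largest change, the 5 nearest genes to Myc, Mxd3, Mxd4 and Mxi1, and Smad2 and Smad3. Same-numbered libraries did not deviate together in the cell-type table (correlations over genes -0.0029 to 0.041). In the Smad table those of sgSmad2 and control did (0.215), with 0.0056 to 0.037 elsewhere. The labels tie no number to a shared source, so the replicate block was fitted only as an alternative. Reads carry no molecular identifiers, so floors cover counting error only. The values of 1 marker list of another blood cell type are not reported here.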

Additional observations from a re-analysis of the deposited data

How the results depend on the processing

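The replicate block was fitted as an alternative because the labels tie no replicate number to a shared source. With it, 759 genes were called in Treg against Th0, 5630 in Treg against naive and 5897 in Th0 against naive. It gave 0 genes in the Smad comparisons. The members called stayed at 2, 7 and 6, and among the changes printed above the block ended 1 call, that of Smad3 in Treg against Th0 (adjusted p = 0.0570). In the Smad table the sgSmad2 and control libraries of 1 number deviated together (correlation 0.215), and for other groups the correlations were 0.0056 to 0.037. Without the intensity trend 453 genes instead of 770 and 1 member instead of 2 were called in Treg against Th0. Leaving out 1 library gave 503 (without Treg library 2) to 642 genes in Treg against Th0, and 4 (without naive library 1) to 7 members in Treg against naive. In sgSmad2, sgSmad3 and sgSmad2/3 against control, where limma called 0 genes, the fit on only the groups compared called 444, 519 and 508, the fit without a trend 175, 158 and 164, a pseudocount of 0.1 called 185, 178 and 178, and a filter of 10 or more called 1, 10 and 54. No member was among them. The departure gave 0 genes in every alternative. Signs turned for Myc in Treg against Th0 (-0.098 to 0.19 over fits that left out 1 library), for Myc in sgSmad3 (-0.12 to 0.21, and -0.090 without control library 1 and sgSmad2 library 1 both, chosen after seeing the data) and for Mxd4 in sgSmad3 (-0.54 to 0.18) and sgSmad2/3 (-0.62 to 0.094), without control library 2 in both and without sgSmad3 library 1 in sgSmad3 (0.018). They also turned over such fits for Mxd1 in sgSmad2 (-0.12 to 0.32, turned without control library 1 or sgSmad2 library 2) and for Mlx in Treg against Th0 (-0.27 to 0.017) and Treg against naive (-0.19 to 0.095), both without Treg library 1 and the second also without Treg library 3 (0.0042). For Mlx they turned in Th0 against naive with quantile (-0.12) or TMM scaling (-0.024), edgeR (-0.022) and DESeq2 (-0.023). The cause was not tested. The ratios of Myc to its antagonists moved by less than the spread of a group under pseudocounts of 0.1 and 5 and without Mnt. Depth limits Mycn in the cell-type table and Mxd3 in naive cells.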
